A study of Arabidopsis thaliana with 4 samples.

Results

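The genes described here are nad1, nad4, nad4L, nad7 and nad9, 5 subunit genes of respiratory complex I that plants keep in the mitochondrial genome. They were taken by name, as the probe sets that the platform annotation assigns to these genes. No measured value entered that rule, but the genes were chosen with earlier results of these data known. They were read by 11 of the 22746 probe sets tested: 7 for nad1 and 1 each for the other 4 genes, out of 13355 named genes in all. Another 2 probe sets carry the name nad1 together with that of a locus on chromosome 2, and they are given apart.

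Transcript levels were compared in Arabidopsis thaliana between the css1 mutant and the wild type (WT, Columbia accession), each sampled as whole seedlings at an age of 9 days. Each genotype had 2 independent biological RNA samples, and each was hybridised to its own array. All seedlings grew under continuous light of 80 µmol photons per square metre and second, on agar plates of B5 medium with 2% sucrose. The labels list no transgene or treatment, and they do not name the gene affected in css1. In the literature, css1 has been described as a mutant in a nuclear gene for a maturase-type protein of mitochondria, with impaired splicing of nad4 transcripts. The transcript of that gene is not analysed here.

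Complex I passes electrons from NADH to ubiquinone and pumps protons across the inner mitochondrial membrane. Its membrane arm holds the subunits of nad1, nad4 and nad4L, and its matrix arm those of nad7 and nad9, which in animals are encoded in the nucleus. In Arabidopsis the transcripts of nad1, nad4 and nad7 carry group II introns, and nad1 is transcribed in separate parts that are joined by trans-splicing. The transcripts of nad4L and nad9 have no intron. The splicing is carried out with nucleus-encoded maturases, pentatricopeptide repeat proteins and helicases, together with the mitochondrial maturase gene matR, which lies inside a nad1 intron. Mature mitochondrial transcripts of plants mostly lack a long poly-A tail.

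Values are log2 signals from RMA, which corrects background, equalises the arrays and merges the probes of a probe set. A difference of 1 is a doubling. Array medians lay between 6.32 and 6.33 in css1 and between 6.36 and 6.37 in WT, and Pearson's r over all probe sets was 0.997 between the css1 arrays, 0.996 between the WT arrays and 0.982 to 0.986 between genotypes. Of the 11 nad probe sets, 5 were dim, below the 30th percentile of mean signal at 4.73, among them those of nad9 and nad7. The files give no detection call, so it is not known which of these signals stand above background. The signal of a probe set does not tell spliced from unspliced RNA, and where the probe sets of nad1 lie relative to its exons and introns is not given in the sources used here. Columbia plants also carry a large copy of the mitochondrial genome on chromosome 2, so RNA of such a copy and of the mitochondrial gene cannot be told apart on these arrays. Whole seedlings were sampled, so fewer cells of a type, fewer mitochondria per cell and less RNA of a gene cannot be told apart either.

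The nad genes fell in part in css1. Of the 11 probe sets, 5 were lower in css1 at an adjusted p under 0.05 (limma, Benjamini-Hochberg over all 22746 probe sets) and 0 were higher, with 6 lower and 1 higher at an unadjusted p under 0.05 (17.4% and 14.3% of all probe sets). The 5 belonged to nad9, nad4L and nad1, the last with 3 of its 7 probe sets. Over all probe sets, 15.6% were called, with 8.01% lower and 7.63% higher, and over the 13681 probe sets whose mean signal lay within the range of the nad probe sets, 6.70% were called lower and 5.71% higher. The median difference of the 11 probe sets was −0.40, beside −0.03 over all probe sets and −0.03 over those in the same signal range. Since 7 of the 11 probe sets read one gene, they are not 11 independent measurements.

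**Figure D1:**
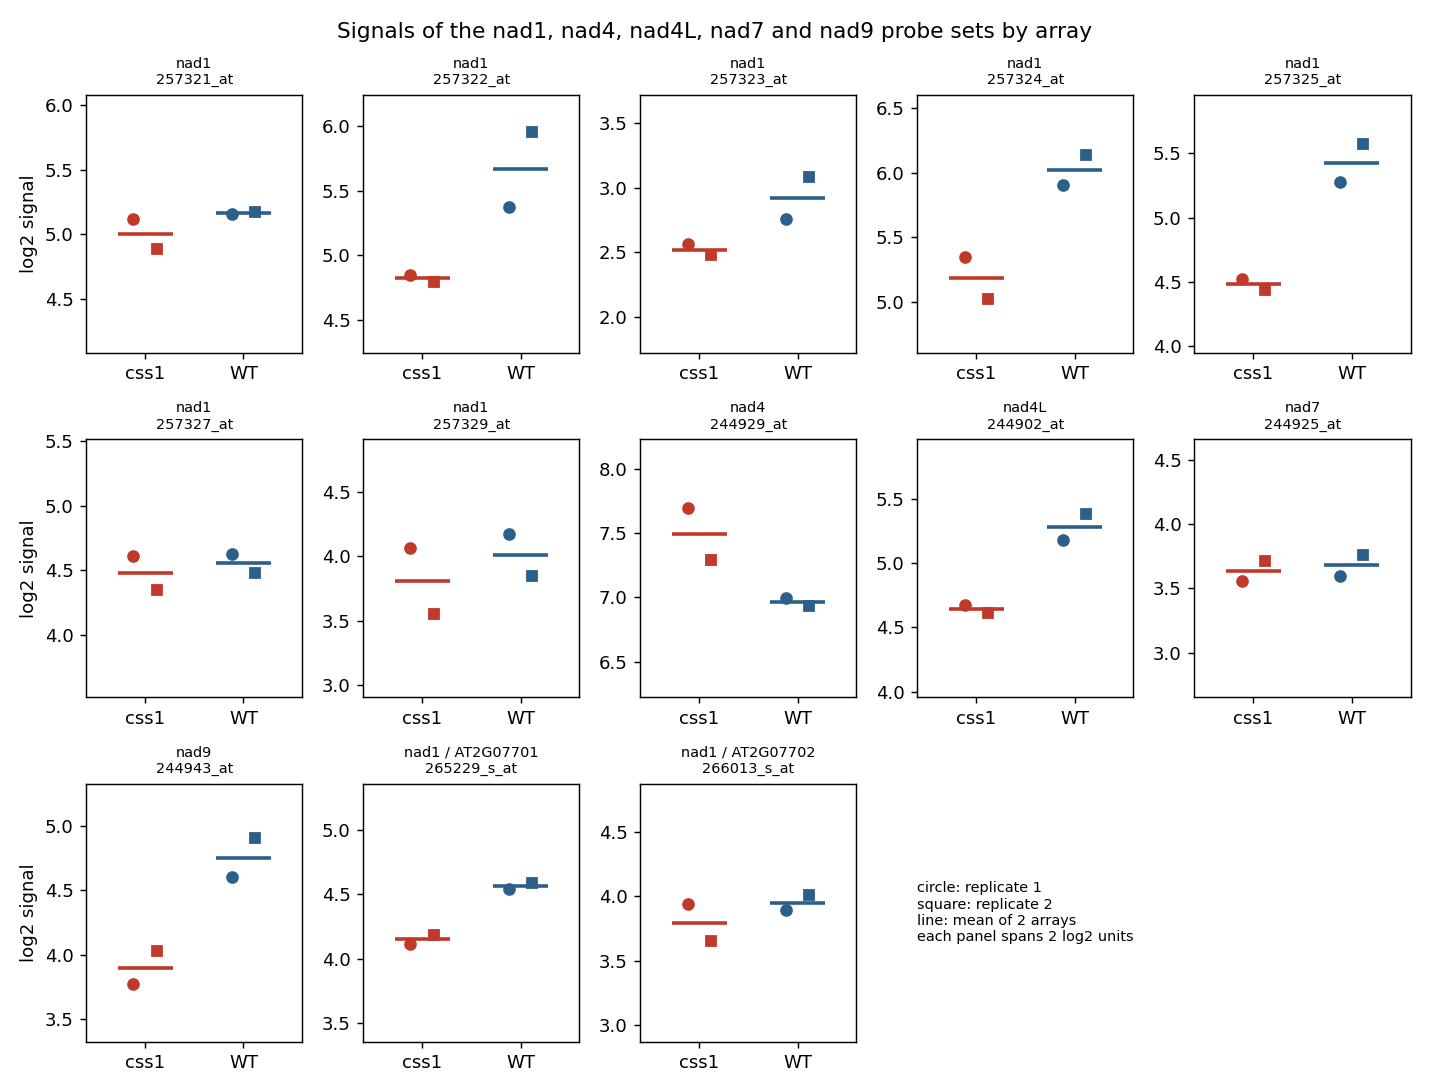
Log2 signal of each probe set in the 2 css1 arrays (left, red) and the 2 WT arrays (right, blue), with a line at the mean of each genotype; every panel spans 2 log2 units, and the last 2 panels are the probe sets shared with a chromosome 2 locus. The css1 values lie wholly below the WT values for nad4L, nad9 and 5 of the 7 nad1 probe sets, and wholly above them for nad4. Over all probe sets, 33.4% had css1 wholly below WT and 26.6% wholly above.

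The 2 genes without an intron both fell. nad9 encodes a subunit of the matrix arm, the counterpart of the nuclear 30-kilodalton subunit of animals. Its probe set 244943_at had 3.77 and 4.03 in the css1 arrays, against 4.60 and 4.91 in the WT arrays. All css1 values were below all WT values, and the means were 3.90 ± 0.18 in css1 and 4.75 ± 0.21 in WT (SD, n = 2 each). The difference was −0.85 (SE 0.14, 95% interval −1.21 to −0.50, limma adjusted p = 0.0171), so the css1 signal was 55.3% of that in WT. The mean of this probe set stood at the 25.3 percentile of all probe sets.

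nad4L encodes a small hydrophobic subunit of the membrane arm. Its probe set 244902_at had 4.67 and 4.61 in css1, against 5.18 and 5.38 in WT. The css1 arrays were again both lower, with means of 4.64 ± 0.05 in css1 and 5.28 ± 0.14 in WT (SD, n = 2 each). The difference was −0.64 (SE 0.10, 95% interval −0.89 to −0.38, limma adjusted p = 0.0161), or 64.4% of the WT signal.

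nad1 encodes the membrane subunit at the joint between the 2 arms of the complex, close to where ubiquinone binds. All 7 of its probe sets had a negative difference, from −0.94 to −0.07, and 3 of them fell. The probe set 257325_at had the smallest p of all 11 nad probe sets, with 4.53 and 4.44 in css1, against 5.28 and 5.57 in WT. Its difference of −0.94 (SE 0.12, 95% interval −1.24 to −0.64, limma adjusted p = 0.00924) left 52.1% of the WT signal. The probe set 257324_at had 5.35 and 5.02 in css1, against 5.91 and 6.14 in WT, a difference of −0.84 (SE 0.14, limma adjusted p = 0.0183). The groups did not overlap in either probe set, and the gap between them was wider than the gap between the arrays of one genotype.

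The nad1 probe set 257322_at had 4.85 and 4.80 in css1, against 5.38 and 5.96 in WT. Both css1 arrays were lower and close together, while the WT arrays were 0.58 apart. Its difference was −0.85 (SE 0.19, 95% interval −1.31 to −0.38, limma adjusted p = 0.0369). The probe set 257323_at was near the floor of the arrays, at the 3.74 percentile of mean signal, with 2.57 and 2.48 in css1, against 2.76 and 3.08 in WT. Its css1 values lay below its WT values, and its difference of −0.40 (SE 0.13) did not pass (limma adjusted p = 0.0929).

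The other 3 probe sets of nad1 gave small differences that did not pass. The probe set 257321_at had 5.12 and 4.88 in css1, against 5.15 and 5.17 in WT, with a 95% interval of the difference from −0.43 to 0.10. The probe set 257327_at had 4.61 and 4.34 in css1, against 4.62 and 4.48 in WT, with an interval from −0.37 to 0.23. In the first the css1 values lay just below the WT values, and in the second they overlapped. The probe set 257329_at had 4.06 and 3.55 in css1, against 4.17 and 3.84 in WT, overlapping groups with an interval from −0.69 to 0.28. The intervals of 257321_at and 257327_at thus did not reach −0.84, the difference of 257324_at, whose own 95% interval was −1.19 to −0.48. This holds for the signals. The probe set 257327_at was dim, at the 27.5 percentile, and may not stand above background, so its interval does not bound the change in RNA.

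Probe sets of nad1 were also set against each other within each array, which removes any shift that an array's signals share. Of the 21 pairs, 13 had css1 values of this within-array difference that did not overlap the WT values. Among single probe sets of the whole array, 33.4% had both css1 values below and 26.6% above both WT values, so the count of pairs is near that background. For 257325_at minus 257327_at the difference was −0.08 and 0.09 in css1, against 0.65 and 1.09 in WT, which was the widest gap in response among the pairs (−0.87). For 257324_at minus 257325_at it was 0.82 and 0.59 in css1, against 0.63 and 0.57 in WT, so these probe sets moved nearly together. With 2 arrays per genotype the exact two-sided permutation test cannot go below p = 0.333, which the 13 pairs reached (0.538 after Benjamini-Hochberg adjustment over the 21 pairs). The pairs share probe sets and arrays and are not independent.

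**Figure D2:**
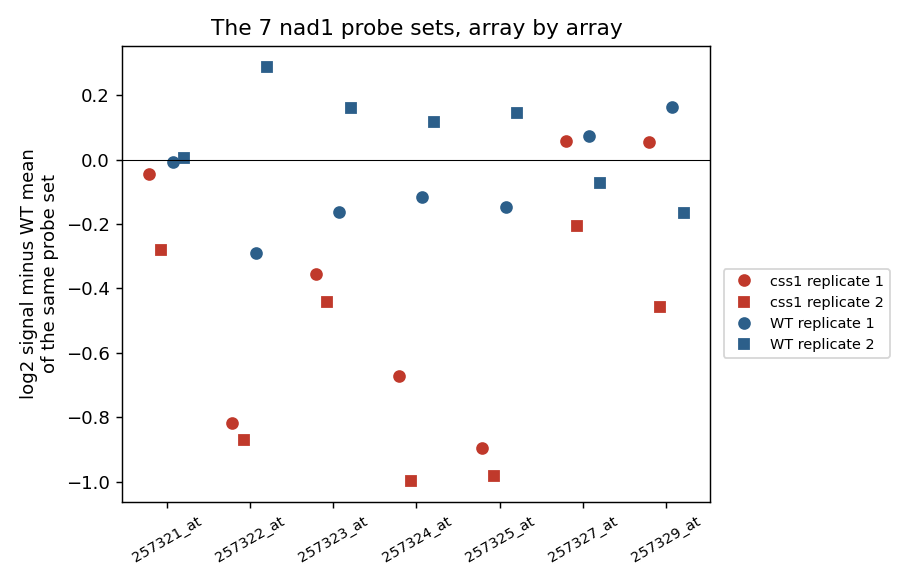
Log2 signal of each of the 7 nad1 probe sets minus its own WT mean, for css1 replicates 1 and 2 (red) and WT replicates 1 and 2 (blue). The css1 arrays lie far below the WT arrays for 257322_at, 257324_at and 257325_at, and close to them for 257321_at, 257327_at and 257329_at.

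Of the 2 probe sets shared between nad1 and a locus on chromosome 2, 1 fell. The probe set 265229_s_at, shared with AT2G07701, had 4.11 and 4.19 in css1, against 4.54 and 4.59 in WT, a difference of −0.41 (SE 0.09, limma adjusted p = 0.0299). The probe set 266013_s_at, shared with AT2G07702, had 3.94 and 3.65 in css1, against 3.89 and 4.01 in WT, and did not pass (−0.15, limma adjusted p = 0.458). The groups were apart in the first and overlapped in the second.

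nad4 went the other way, without passing the threshold. It encodes a proton-pumping subunit of the membrane arm. The splicing of nad4 has been described as impaired in css1, which does not exclude the other nad transcripts. The probe set 244929_at was the brightest of the nad probe sets relative to the rest of the array, at the 63.9 percentile of mean signal. It had 7.69 and 7.29 in css1, against 6.99 and 6.93 in WT. Both css1 values were above both WT values, as in 26.6% of all probe sets, and the css1 arrays were further apart (SD 0.29) than the WT arrays (SD 0.04). The difference was 0.53 (SE 0.15, 95% interval 0.17 to 0.89, limma adjusted p = 0.0638, unadjusted p = 0.0120), a css1 signal of 144% of that in WT. Across the 14 alternative settings the adjusted p ran from 0.0482 to 0.228, and it was under 0.05 in 1 of them, cyclic loess normalization (0.57), a setting chosen after seeing the data.

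nad7 encodes the matrix-arm subunit that faces the ubiquinone site, and its transcripts carry introns like those of nad4. The probe set 244925_at had 3.56 and 3.71 in css1, against 3.60 and 3.76 in WT. The groups overlapped almost fully, with a difference of −0.04 (SE 0.10, 95% interval −0.30 to 0.21, limma adjusted p = 0.830). The signal was low, at the 16.4 percentile. The genes with introns gave 3 of 9 probe sets called, all of nad1, which alone had 7 of the 9. Those without an intron gave 2 of 2, and over all probe sets 8.01% were called lower. This split rests on 5 genes and was not tested.

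The arrays of one genotype also differed from each other. The signal of WT replicate 2 was above that of WT replicate 1 in 8 of the 11 nad probe sets, whereas over the whole array this held for a minority, 10263 of 22746. In css1, replicate 1 was above replicate 2 in 9 of 11, including all 7 of nad1, beside 12782 of 22746. The widest gap between replicates was that of 257322_at in WT, and the next that of 257329_at in css1 (0.51).

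Some control measures moved with the genotype. The cytosolic 25S ribosomal RNA control stood at 11.87 and 11.98 in css1, against 11.33 and 11.57 in WT. The 24 Bacillus poly-A controls had a median of 5.44 and 5.58 in css1, against 5.06 and 5.37 in WT, higher in css1 where the nad signals were mostly lower. The gap between the 3′ and 5′ probe sets of the actin control was 1.09 and 1.29 in css1, against 1.04 and 1.04 in WT, while that of GAPDH overlapped between the genotypes. The part of these measures in the nad differences was not tested. Markers of shoot and root were both bright: the rubisco activase gene RCA had 13.50 and 13.45 in css1, against 13.68 and 13.73 in WT, and the root beta-glucosidase gene PYK10 had 12.72 and 12.60 in css1, against 12.16 and 12.15 in WT. PYK10 rose by 0.50 (limma adjusted p = 0.0199), whereas the root hair expansin gene EXPA7 was at −0.33 (limma adjusted p = 0.123) and RCA at −0.23 (limma adjusted p = 0.128). These 3 were the measured genes among 8 shoot and 9 root markers listed, and their part in the nad differences was not tested.

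The other nad genes of the mitochondrial genome with a named probe set were nad2, nad5 and nad6. They gave 4 probe sets, all with css1 values below the WT values. Limma called 0 of the 4 at an adjusted p under 0.05, with 2 lower at an unadjusted p under 0.05. Over all probe sets, 33.4% had both css1 values below both WT values. By limma, 8.01% were called lower and 17.4% were lower at an unadjusted p under 0.05. nad5, for another proton-pumping subunit, had 3.43 and 3.70 in css1, against 3.80 and 4.11 in WT, on 257337_at (−0.39, limma adjusted p = 0.128). Its second probe set, 257338_s_at, had 4.36 and 4.24 in css1, against 4.42 and 4.77 in WT (−0.29, limma adjusted p = 0.208). nad2, also for a subunit of that kind, was at −0.23 (limma adjusted p = 0.144) and nad6 at −0.14 (limma adjusted p = 0.346). All 4 lay below the 30th percentile of mean signal.

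Genes of the mitochondrial genome outside complex I did not share one direction. Their 9 probe sets had a median difference of 0.18, with 6 above 0 and 3 below, and 1 rose and 1 fell. Over all probe sets, 7.63% were called higher and 8.01% lower, and 10211 of 22746 had a positive difference. Together with the 4 just given, the 9 make 13 probe sets, with a median of −0.13. These read 13 of the 32 other mitochondrial genes listed. The cytochrome c maturation gene ccmFN1 (named ccb382 by the annotation) had 9.14 and 8.94 in css1, against 7.65 and 7.43 in WT, a rise of 1.50 (SE 0.12, limma adjusted p = 0.00281). ccmFC (ccb452), of the same pathway, had 6.11 and 6.11 in css1, against 6.71 and 6.81 in WT, and fell by 0.65 (SE 0.09, limma adjusted p = 0.0102). With css1 replicate 1 or css1 replicate 2 left out, 1 of the 13 probe sets was called higher and 0 lower by limma, so ccmFC was no longer called. The cytochrome oxidase genes were at 0.49 for cox1 (limma adjusted p = 0.0808) and −0.27 for cox2 (limma adjusted p = 0.118). matR, the maturase gene inside a nad1 intron, had 3.73 and 3.51 in css1, against 3.53 and 3.34 in WT, overlapping groups at the 14.5 percentile of signal (0.18, limma adjusted p = 0.362).

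Neighbours of nad9, nad4, nad1 and nad7 in the mitochondrial genome were measured in part. In the RefSeq annotation nad9 lies next to rpl16, for a ribosomal protein. The probe set that rpl16 shares with the ribosomal gene rps3 had 7.63 and 6.98 in css1, against 6.85 and 6.84 in WT (0.47, limma adjusted p = 0.193), while nad9 fell. nad4 lies between ccmFC, which fell, and mttB (orfX), for a membrane transport protein, which had 5.78 and 5.38 in css1, against 5.44 and 5.20 in WT (0.26, limma adjusted p = 0.332). Next to nad1 lies cox1 (0.49, limma adjusted p = 0.0808), and next to nad7 lies nad5 (−0.39 and −0.29), both given above. Genes were ordered by a single start position each. Since nad1 is transcribed in separate parts, its neighbour holds for 1 part at most, and which part each nad1 probe set reads is not known. The css1 replicate 1 signal was above that of replicate 2 in nad4, mttB and the rps3 and rpl16 probe set alike. This held for 9 of the 13 mitochondrial probe sets outside the 5 nad genes, and for 12782 of 22746 over all probe sets, so it is not particular to these neighbours. The difference of each neighbour from its nad gene was not tested.

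The nuclear genes of complex I stood on the other side. Of 38 listed genes, 23 were measured, all with a positive difference. Limma called 5 higher and 0 lower, with 15 higher and 0 lower at an unadjusted p under 0.05. Over all probe sets, 10211 of 22746 had a positive difference, 7.63% were called higher and 14.3% were higher at an unadjusted p under 0.05. These shares cover all signal levels, and none was computed for the signal range of the 23 genes. The median difference of the 23 was 0.28, from 0.03 to 0.61. AT2G31490, for an accessory subunit, had 10.64 and 10.67 in css1, against 10.12 and 9.97 in WT (0.61, SE 0.09, limma adjusted p = 0.0144). AT2G47690 (0.57), AT3G06310 (0.58) and AT1G14450 (0.49), for further accessory subunits, rose with limma adjusted p of 0.0159, 0.0183 and 0.0178. The remaining call, AT3G62790 (0.40, limma adjusted p = 0.0293), lies outside the naming rule and was named after its value was seen. All 23 lay between the 58.6 and 99.2 percentiles of mean signal, a range that held only the nad4 probe set among those of the 5 nad genes. Both groups of genes were measured on the same arrays and share the same WT values. With css1 replicate 1 left out limma called 0 of the 23 (7 at an unadjusted p under 0.05), and likewise 0 without css1 replicate 2 (6 at an unadjusted p under 0.05).

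**Figure D3:**
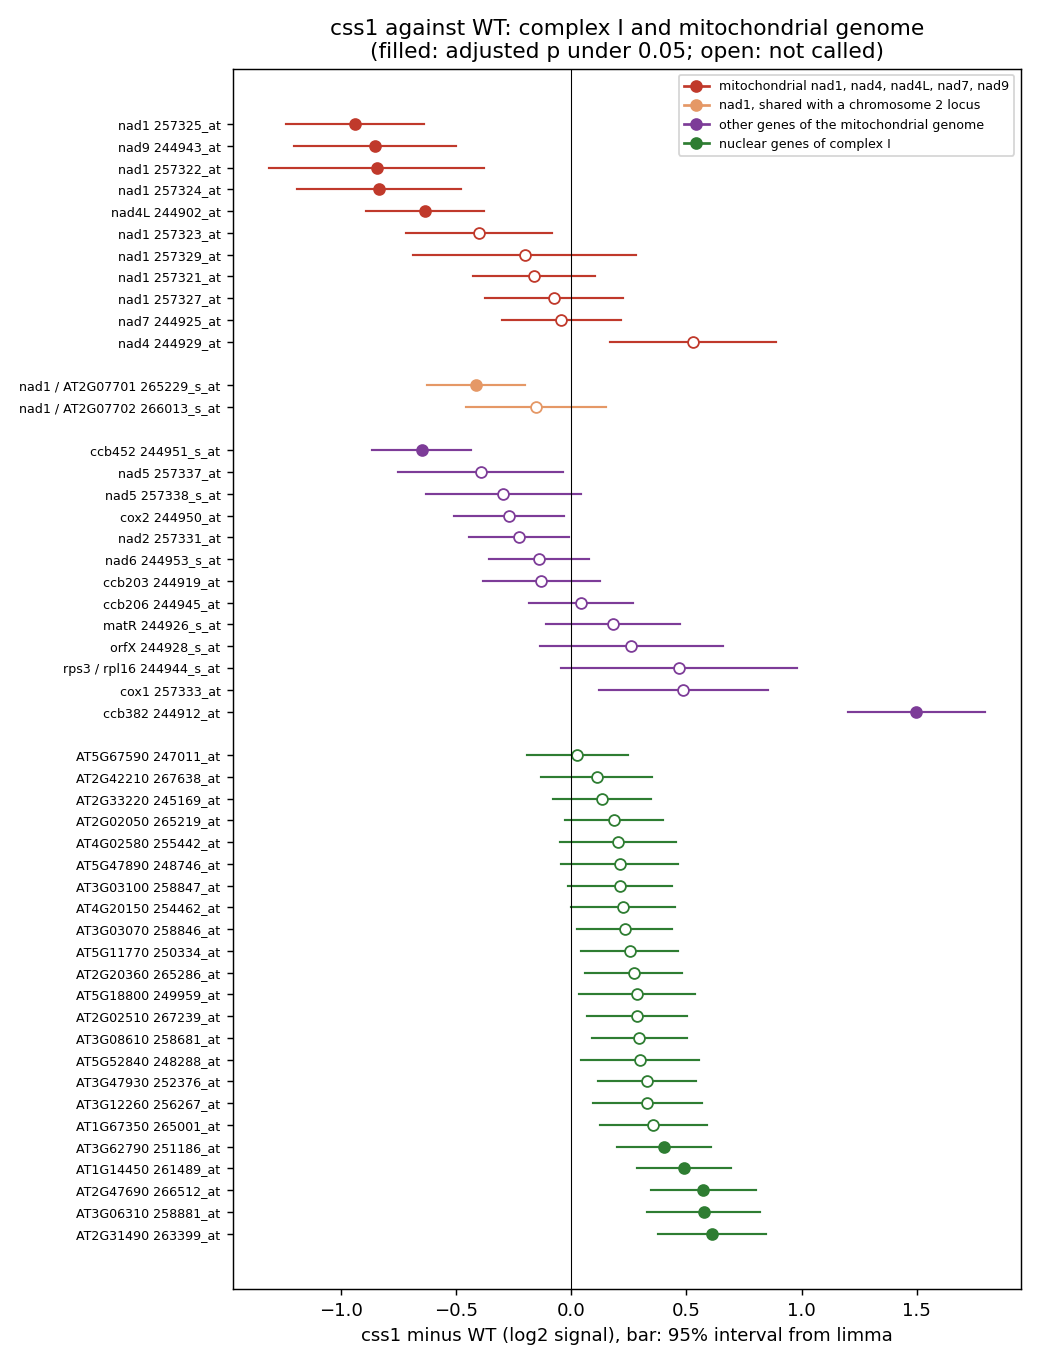
Difference in log2 signal, css1 minus WT, with the 95% interval from limma, for the nad probe sets (red), the probe sets shared with a chromosome 2 locus (orange), the other genes of the mitochondrial genome (purple) and nuclear genes of complex I (green); filled points have an adjusted p under 0.05. The nad points run from −0.94 to 0.53, while all 23 nuclear points lie above 0.

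Genes that act on these transcripts were measured in part. Of 13 listed nuclear splicing factors of nad introns, 5 had a named probe set, and limma called 0 of them. At an unadjusted p under 0.05, 1 was higher and 0 were lower. Over all probe sets, 15.6% were called, and 14.3% were higher and 17.4% lower at an unadjusted p under 0.05. At that share, 0 calls among 5 genes do not set them apart from other genes. The 1 higher gene, OTP43, for a pentatricopeptide repeat protein of nad1 trans-splicing, had 5.41 and 5.57 in css1, against 5.10 and 5.31 in WT (0.29, limma adjusted p = 0.145). SLO3, for such a protein of nad7 splicing, was at 0.23 (limma adjusted p = 0.374). The maturase genes NMAT2, NMAT3 and NMAT4 were at 0.18, −0.19 and −0.10 (limma adjusted p of 0.252, 0.374 and 0.513). AT5G14580, for the mitochondrial polynucleotide phosphorylase that trims and degrades transcripts in the organelle, had 5.27 and 5.44 in css1, against 4.45 and 4.37 in WT, and rose by 0.94 (SE 0.10, limma adjusted p = 0.00554). RPOTMP, for an organelle RNA polymerase, was at 0.15 (limma adjusted p = 0.300).

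The plastid NDH complex is built from subunits related to those of complex I, and its 11 plastid genes were all measured. Of these 3 fell and 0 rose by limma, with 3 lower and 0 higher at an unadjusted p under 0.05. Over all probe sets, 8.01% were called lower and 17.4% were lower at an unadjusted p under 0.05. The median difference of the 11 genes was −0.22. ndhK had 8.03 and 7.85 in css1, against 9.09 and 8.82 in WT (−1.02, limma adjusted p = 0.00811). ndhJ was at −0.97 (limma adjusted p = 0.0271), ndhG at −0.65 (limma adjusted p = 0.0466) and ndhH at −0.28 (limma adjusted p = 0.196). ndhJ is the counterpart of nad9, and both fell, whereas ndhH and its counterpart nad7 did not pass. The counterparts of nad1, nad4 and nad4L, named for that relation and not by the rule, did not pass either: ndhA was at −0.22 (limma adjusted p = 0.499), ndhD at 0.07 (limma adjusted p = 0.816) and ndhE at −0.81 (limma adjusted p = 0.252). The css1 arrays were far apart for ndhE, at 5.77 and 4.41, against 6.07 and 5.73 in WT.

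The genes with the pattern most like that of 257325_at over the 4 arrays were sought among the 13502 other probe sets with 1 named gene, by the root mean square distance of log2 signals centred on each probe set's mean. They were AT1G31050 (distance 0.02, difference −0.97), AT1G66330 (0.02, −0.95) and AKINBETA1 (0.03, −0.92). All 3 are nuclear genes, as are most of the candidates. Since they were picked for likeness to 257325_at, differences close to its own follow from the choice.

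Fewer probe sets were called when a css1 array was left out, among the nad probe sets and over the whole array. Without css1 replicate 2, limma called 0 of the 11 nad probe sets (6 at an unadjusted p under 0.05) and 560 of all 22746, and without css1 replicate 1 it called 1 of the 11, 257324_at, and 659 of all, beside 5 and 3559 with 4 arrays. The differences themselves moved less: without css1 replicate 2 they were −0.98 for nad9, −0.60 for nad4L and −0.89 for 257325_at, and without css1 replicate 1 they were −0.73, −0.67 and −0.98. With a css1 array left out, the spread came from the WT arrays alone, which varied more: the median SD over probe sets was 0.067 in css1 and 0.086 in WT.

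**Figure D4:**
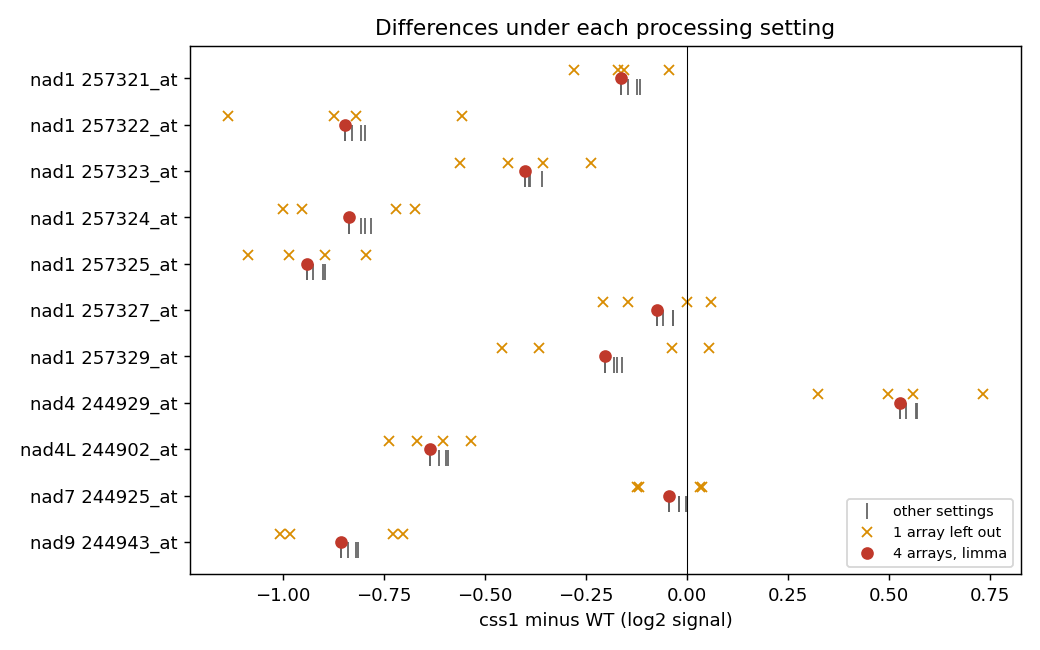
Difference in log2 signal, css1 minus WT, for each nad probe set: the value with 4 arrays (red circle), with 1 array left out (orange crosses) and under the other settings (grey ticks). The points of nad9, nad4L and the nad1 probe sets 257322_at, 257324_at and 257325_at stay below 0 and those of nad4 above 0 in every setting drawn, while nad7, 257327_at and 257329_at cross 0 when an array is left out.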

How the data were processed

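For each sample 250 ng of total RNA was turned into biotinylated cRNA and hybridised to 1-colour Affymetrix arrays, per the labels' protocols. The authors deposited log2 signals for 22810 probe sets, computed with RMA per the submitters' processing notes. Its version is not given in the sources used here, nor are the scanner software and detection calls. The values were used as deposited. After 64 control probe sets were set aside, 22746 were tested with limma 3.58.1 (R 4.3.3) in a two-sided test with genotype as its single term, moderated by eBayes. Calls were made at an adjusted p under 0.05 (Benjamini-Hochberg, all tested probe sets). The procedure was tested on simulated data.

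The annotation gave 1 gene for 13513 probe sets and several for 503, and did not list 8730. The gene IDs of the 5 nad genes were not found in RefSeq's gene table (TAIR10.1), so mitochondrial genes were matched to it by symbol, for 5 of 5. No coordinates or sequences are given. The genes, the lists and the naming rule were chosen with earlier results of these data known. The rule names every nad probe set and matR, all members of lists with at most 5 measured, up to 4 members with the smallest p of larger lists, and the 3 probe sets nearest in pattern to the nad probe set with the smallest p. Neighbouring genes were added afterwards.

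Alternatives were leaving out each array, an adjusted p under 0.01, the replicate number as a block, array weights, 3 rescalings (median centring, second quantile normalization and, added after seeing the data, cyclic loess), eBayes with a trend, robust eBayes, a single probe set per locus, and leaving out probe sets under the 30th percentile of mean signal. Same-numbered replicates showed no pairing: the correlation of their deviations from the genotype means was −0.006. The number of arrays limits the precision: standard errors of the nad differences ran from 0.10 to 0.20.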

Additional observations from a re-analysis of the deposited data

How the results depend on the processing

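The count of 5 lower nad probe sets was 4 to 6 under the filter (which kept 6 of 11), trend, robust, centring, second quantile normalization, array weights and cyclic loess. It was 3 with 1 probe set per locus (5 tested), 2 with the replicate block, 1 at an adjusted p under 0.01, and 0 to 6 with an array left out; the 6 of cyclic loess include nad4 as higher, and the 6 without WT replicate 1 include the nad1 probe set 257323_at. The replicate numbers mark no known shared batch, and with the block 257325_at and nad9 remained called. Leaving out an array turned the sign of probe sets that had not passed: nad7 ranged from −0.12 to 0.0377 (above 0 without css1 replicate 1 and without WT replicate 2), and 257327_at ranged from −0.21 to 0.0588 and 257329_at from −0.46 to 0.0539 (above 0 without css1 replicate 2). Among the other probe sets of the mitochondrial genome the count of 2 was 1 at an adjusted p under 0.01 and 1 to 2 with an array left out. For nuclear complex I the count of 5 was 8 with the filter, trend or centring, 0 with the replicate block and at an adjusted p under 0.01 (15 of 23 at an unadjusted p under 0.05 in limma in both), and 0 to 4 with an array left out. Over all probe sets the count of 3559 was 1264 with the replicate block, 773 at an adjusted p under 0.01 and 560 to 3079 with an array left out. Median centring of the arrays gave 2069 calls higher and 1497 lower, beside 1736 and 1823. The spread of the nad1 differences (highest minus lowest) was 0.87, and 0.65 to 1.13 with an array left out. The dim signals of 5 nad probe sets limit what can be said of nad9, which the filter leaves out, of nad7 and of 3 probe sets of nad1.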
